A study of Homo sapiens with 6 samples.

Results

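The genes of glycolysis and of the pentose phosphate pathway were followed in RNA-Seq libraries of HCT116, a long-established colorectal cancer cell line of human origin that carries wild-type p53. Of 34 gene names chosen for these pathways, 33 matched a symbol among the 27942 genes of the deposited table, and all 33 passed the filter on low counts. Cells grown in RPMI medium with serum (the labels list penicillin and streptomycin as well, whereas the study's methods say that antibiotics were left out) were left untreated (NT, 3 libraries) or received 0.5 µM oxaliplatin, a platinum compound that crosslinks DNA, for 24 h (OXA, 3 libraries). All libraries come from this single cell line, and the labels do not say whether they came from separate cultures, so that p-values measure the spread between these libraries only. PGLS, the remaining name, did not match by symbol. Its Ensembl identifier is listed under AC010618.1 and averaged 424 ± 133 normalized counts in NT against 406 ± 67.1 in OXA (mean ± SD, n = 3), without being counted among the 33.

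Glycolysis splits glucose into pyruvate, and tumour cells commonly reduce much of that pyruvate to lactate, which is exported with a proton. The pentose phosphate pathway branches off after the hexokinase step, makes NADPH, and gives ribose phosphate for nucleotides. Flux into the lower part of glycolysis is set largely at phosphofructokinase, whose strongest allosteric activator, fructose bisphosphate of the regulatory type, is made and removed by the PFKFB enzymes and removed by TIGAR, a p53-inducible phosphatase. Pyruvate dehydrogenase kinases keep pyruvate out of the mitochondrial citrate cycle.

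Library totals lay between 32979521 and 40967880 counts. Normalized counts are raw counts divided by library size times TMM factor and multiplied by the mean of that product over the libraries. Log2 fold changes are OXA over NT from the quasi-likelihood test of edgeR. Their p-values were adjusted by Benjamini-Hochberg (BH) over the 13727 genes tested. CDKN1A, the p53 target used as a check of the treatment, was higher in OXA (log2 fold change 2.93, edgeR BH-adjusted p = 0.000445). The epithelial markers EPCAM, CDH1, KRT8, KRT18, CLDN4 and ELF3 were detected in every library, whereas DCN and LUM were at 0 in all 6 and PTPRC, CD3E and COL1A2 had at most 2 raw counts in any library. Of the other 3 markers of other cell types, PECAM1 had 1 to 7 raw counts, whereas CD68 had 152 to 237 and COL1A1 had 107 to 273. Libraries within a group differed by transcript GC content. Across the 33 genes, the deviation of NT library 1 from the other NT libraries had a Spearman correlation of -0.90 with the GC content of the transcript, and the same value was 0.80 for NT library 2, 0.69 for NT library 3, -0.83 for OXA library 1, 0.81 for OXA library 2 and -0.074 for OXA library 3. Libraries with the same number deviated together, so a second fit that takes the library number as a block is given beside the plain fit wherever it changes a call. In bulk RNA, fewer cells with a transcript and less of it per cell cannot be told apart.

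Of the 33 genes, 3 rose in OXA at an edgeR BH-adjusted p under 0.05, namely TIGAR, HK2 and ENO2, and 0 fell (by DESeq2, 6 rose, these 3 with SLC2A1, GPI and TPI1, and 0 fell, against 4.72% and 4.47% of the genes to which DESeq2 gave an adjusted p). Over all genes tested by edgeR, 2.78% were called higher and 2.29% lower. The gene list was chosen with earlier results of these data known, and the study itself names TIGAR among up-regulated p53 targets. Shares of the 33 beside those of all genes are therefore a description only. At an unadjusted p under 0.05, 17 of the 33 were higher and 0 lower, against 10.7% and 11.1% of all genes. With that block, 20 of the 33 (60.6%) rose and 0 fell, against 12.1% and 10.9% of all genes. With GC and length trends of each library also removed, 25 rose and 2 fell (PFKL and PDK3), against 26.1% and 18.9% of all genes. The median transcript GC content was 53.3% for the 33 genes and 48.8% for all genes tested, and its part in the calls was not tested. With the block, the median standard error was 0.0695 for the 33 genes and 0.0902 for all genes tested. The part of that smaller error in the shares called was not tested either. The 33 genes had a median log2 fold change of 0.32, where the median of all genes tested was 0.02. Without NT library 1 the median of the 33 was 0.24 (all genes -0.004). In the blocked fit it was 0.25 with pair 1 left out (all genes 0.002) and 0.25 with GC and length trends removed (all genes 0.03). In 16 of the 33 the lowest OXA library exceeded the highest NT library, which held for 14.5% of all genes, and in 0 of the 33 every OXA library lay below (14.4% of all genes). OXA exceeded NT in all 3 same-numbered pairs in 23 of the 33, against 33.8% of all genes, and was lower in all 3 in 1 (27.6% of all genes). The plain fit rested on single libraries, with 4 genes called without NT library 1, 2 without NT library 2 and 1 (TIGAR) without any one of the other 4 libraries. Calls over all genes moved as well, with 4.49% higher without NT library 1, 1.1% without NT library 2 and 0.474% to 0.829% without the others. With the block, the counts were 23, 12 and 17 when pair 1, 2 or 3 was left out, against 21.2%, 6.95% and 13.7% of all genes, and 1 (PFKL), 0 and 0 fell, against 20.2%, 4.89% and 8.66%.

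**Figure D1:**
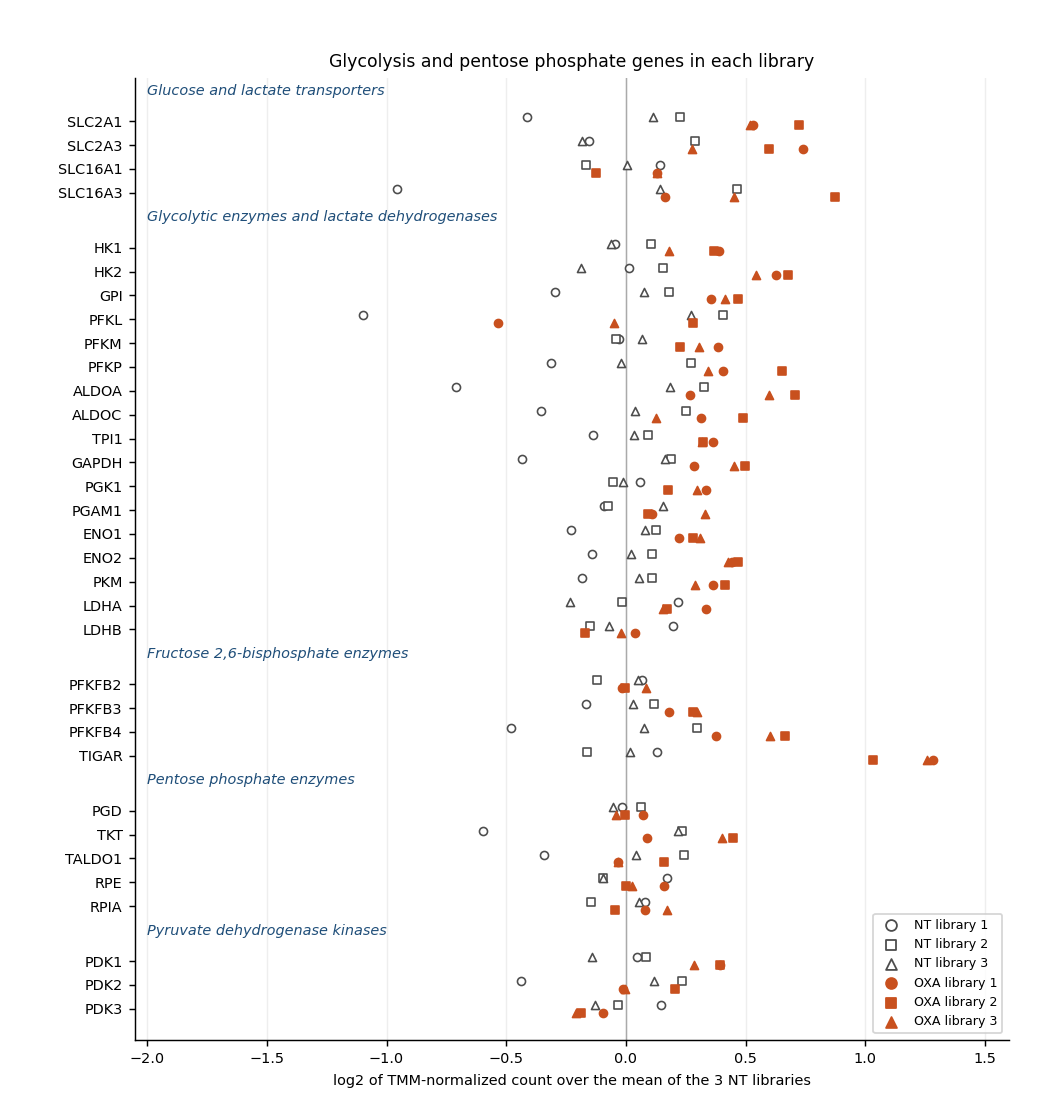
TMM-normalized count of each of the 33 genes in each library, as log2 over the mean of the 3 NT libraries (x axis), with genes grouped by role (y axis), NT libraries as open and OXA libraries as filled symbols, and the shape giving the library number. TIGAR lies farthest to the right in all 3 OXA libraries, most enzymes of the glycolytic chain are shifted to the right, the pentose phosphate genes overlap, and NT library 1 (open circles) lies far to the left in PFKL, SLC16A3, ALDOA and TKT.

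**Figure D2:**
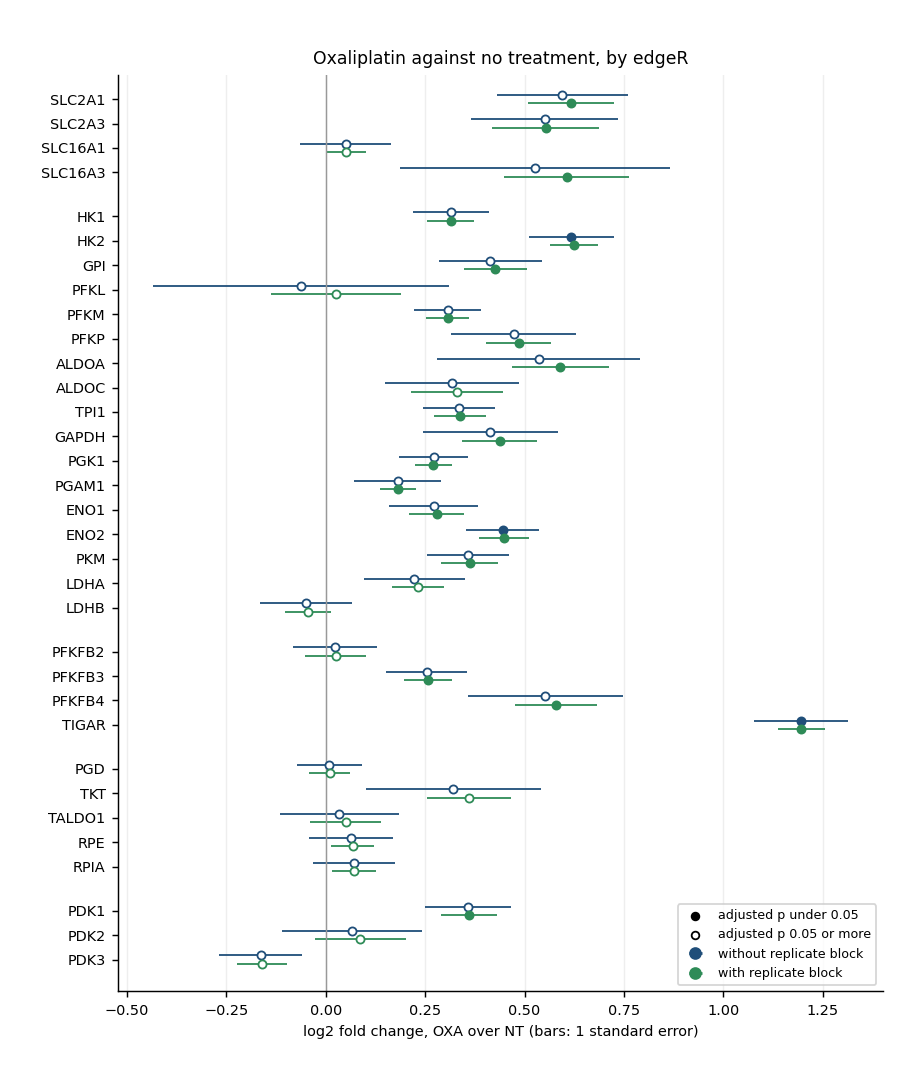
Log2 fold change of OXA over NT with its standard error (x axis) for each gene (y axis), from edgeR without and with the library number as a block, filled where the adjusted p was under 0.05. Filled symbols are limited to TIGAR, HK2 and ENO2 without the block and cover 20 genes with it, at nearly the same estimates and with a smaller standard error for each of the 33.

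TIGAR, the gene with the largest change, encodes a phosphatase that lowers the activator of phosphofructokinase and so directs sugar phosphates toward the pentose phosphate branch. The gene (ENSG00000078237) lies on chromosome 12 of GRCh38 from 4307763 to 4360028. It had 1132, 924 and 1048 normalized counts in NT libraries 1 to 3 against 2517, 2116 and 2473 in OXA libraries 1 to 3. All OXA values lay well above all NT values, and the log2 ratios within the pairs, 1.15, 1.20 and 1.24, were close to each other. The log2 fold change was 1.20 (SE 0.118, edgeR BH-adjusted p = 0.00345), a 2.29-fold rise that kept its call whichever of the 6 libraries was omitted. The transcript of TIGAR has a GC content of 41.1%, and NT library 1 was the highest of the NT libraries. On a scale per transcript length TIGAR stayed a minor transcript, with 8.09 ± 0.928 TPM (transcripts scaled to a fixed total per library) in NT and 17.5 ± 1.66 in OXA. An overlapping gene on the same strand, AC008012.1, shares 1711 exon bases with TIGAR and was listed at 0 in all libraries, and how shared reads were assigned is not given in the sources used here.

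HK2, an inducible hexokinase that traps glucose in the cell by phosphorylation at the mitochondrial surface, had 2285, 2524 and 1990 normalized counts in NT against 3503, 3626 and 3304 in OXA. The groups were separate, with a log2 fold change of 0.62 (SE 0.107, edgeR BH-adjusted p = 0.022). ENO2, the neuronal enolase that is also made in many tumour lines, had 2468, 2940 and 2768 in NT against 3705, 3768 and 3660 in OXA. The OXA values of ENO2 lay within a narrow band above NT (log2 fold change 0.45, SE 0.0915, edgeR BH-adjusted p = 0.0374). HK2 lost its call without NT library 3 or any OXA library, with an edgeR BH-adjusted p of up to 0.114, and ENO2 lost it without any library but NT library 1, with up to 0.161. With the block they were at 0.0036 and 0.00848.

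The upstream sequences of the 3 genes that rose in the plain fit are shown because they adjoin an annotated start of transcription. Each line gives the 250 bases before the RefSeq start, 5′ to 3′ on the strand of the gene (plus strand of GRCh38.p14 in all 3), with ACGTG on either strand in capitals, the core letters of the hypoxia response element, which also lie within the E-box CACGTG. The windows are chr12:4320963-4321212 for TIGAR, chr2:74833877-74834126 for HK2 and chr12:6914330-6914579 for ENO2. Each ends at the start of the canonical GENCODE transcript, and the TIGAR and ENO2 windows lie inside the gene spans because other annotated transcripts start farther upstream.
TIGAR: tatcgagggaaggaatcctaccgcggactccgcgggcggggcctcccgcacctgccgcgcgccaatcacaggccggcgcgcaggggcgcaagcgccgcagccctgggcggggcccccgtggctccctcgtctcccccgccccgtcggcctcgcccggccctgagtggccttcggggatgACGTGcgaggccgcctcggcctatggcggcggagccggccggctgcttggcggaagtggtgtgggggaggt
HK2: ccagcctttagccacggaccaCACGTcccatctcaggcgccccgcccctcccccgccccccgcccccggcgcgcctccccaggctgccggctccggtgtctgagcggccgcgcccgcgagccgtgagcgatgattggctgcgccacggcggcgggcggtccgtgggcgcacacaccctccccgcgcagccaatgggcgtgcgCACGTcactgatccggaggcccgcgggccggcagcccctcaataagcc
ENO2: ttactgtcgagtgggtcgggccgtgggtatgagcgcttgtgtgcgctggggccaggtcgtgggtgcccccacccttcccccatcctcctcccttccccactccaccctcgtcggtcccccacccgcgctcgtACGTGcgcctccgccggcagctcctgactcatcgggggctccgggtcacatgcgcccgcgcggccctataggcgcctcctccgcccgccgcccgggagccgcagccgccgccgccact
TIGAR and ENO2 hold 1 match each and HK2 holds 2, and none of the 3 windows holds CACGTG. Of the 30 genes with such a window, 15 held ACGTG and 5 held CACGTG, where 18.5% and 6.34% of all 35116 RefSeq windows did. The p53 half-site consensus, searched on both strands, matched in 1 of the 30 (PGAM1) and in 5.57% of all windows. The 30 windows, 1 per gene, were not matched to all windows by GC content. Some lie away from the canonical start, by 747 bases in GAPDH, 1627 in PGAM1 and 3283 in PFKM. Such matches of letters in short windows say nothing of binding.

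The enzymes that carry glucose from hexokinase to lactate made up most of the counts of the 33 genes. The 17 genes of this group took 1.63%, 2.03% and 1.96% of all counts in NT and 2.18%, 2.36% and 2.29% in OXA, the lowest share being that of NT library 1. Of the 17, 2 rose in the plain fit (HK2 and ENO2) and 13 with the block, against 2.78% and 12.1% of all genes. A positive log2 fold change was found in 15, and the median of the 17 was 0.32. GAPDH, which oxidizes glyceraldehyde phosphate and is widely used as a loading control, was the most abundant of the 33 on the scale per transcript length, with 8628 ± 1842 TPM in NT against 10918 ± 866 in OXA. Its normalized counts were 128244, 197158 and 194210 in NT against 210872, 244297 and 237078 in OXA. The groups were separate, with NT library 1 far below the rest (log2 fold change 0.41, SE 0.169, edgeR BH-adjusted p = 0.211, and 0.0262 with the block). The rise within the pairs was 0.72 on the log2 scale in pair 1, but 0.31 and 0.29 in pairs 2 and 3.

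HK1, the constitutive hexokinase, had 4629, 5141 and 4580 normalized counts in NT against 6265, 6173 and 5420 in OXA (log2 fold change 0.32, edgeR BH-adjusted p = 0.105, and 0.0179 with the block). GPI, which converts glucose phosphate to fructose phosphate, had 21618, 30036 and 27964 in NT against 33967, 36722 and 35387 in OXA (log2 fold change 0.41, edgeR BH-adjusted p = 0.113, and 0.0183 with the block). In both genes the groups were separate, HK1 was called with the block and not in the plain fit, and GPI was called with the block and by DESeq2.

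The 3 phosphofructokinase genes encode subunits of the same tetramer, and differences between their changes were not tested. PFKP, the platelet-type subunit, went from 5672, 8508 and 6950 to 9327, 11061 and 8933 normalized counts, with no overlap (log2 fold change 0.47, edgeR BH-adjusted p = 0.133, and 0.0138 with the block). PFKM, the muscle-type subunit, went from 7349, 7277 and 7854 to 9780, 8772 and 9261, again with no overlap (log2 fold change 0.31, edgeR BH-adjusted p = 0.0824, and 0.0162 with the block). SENP1 shares 516 exon bases with PFKM on the opposite strand, and how the authors' counting used strand is not given in the sources used here. PFKL, the liver-type subunit, had 1177, 3335 and 3041 in NT against 1739, 3061 and 2434 in OXA. Library 1 was the lowest in each group, the groups overlapped, and the sign differed between the fits (log2 fold change -0.06, edgeR BH-adjusted p = 0.946, and 0.03 with the block at adjusted p = 0.918). Its transcript has a GC content of 63.4%, and NT library 1 lay 1.44 below the other NT libraries on the log2 scale. In the blocked fit without GC and length trends, PFKL was lower in OXA (log2 fold change -0.16, edgeR BH-adjusted p = 0.0388), and it was also lower with pair 1 left out (-0.22).

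**Figure D3:**
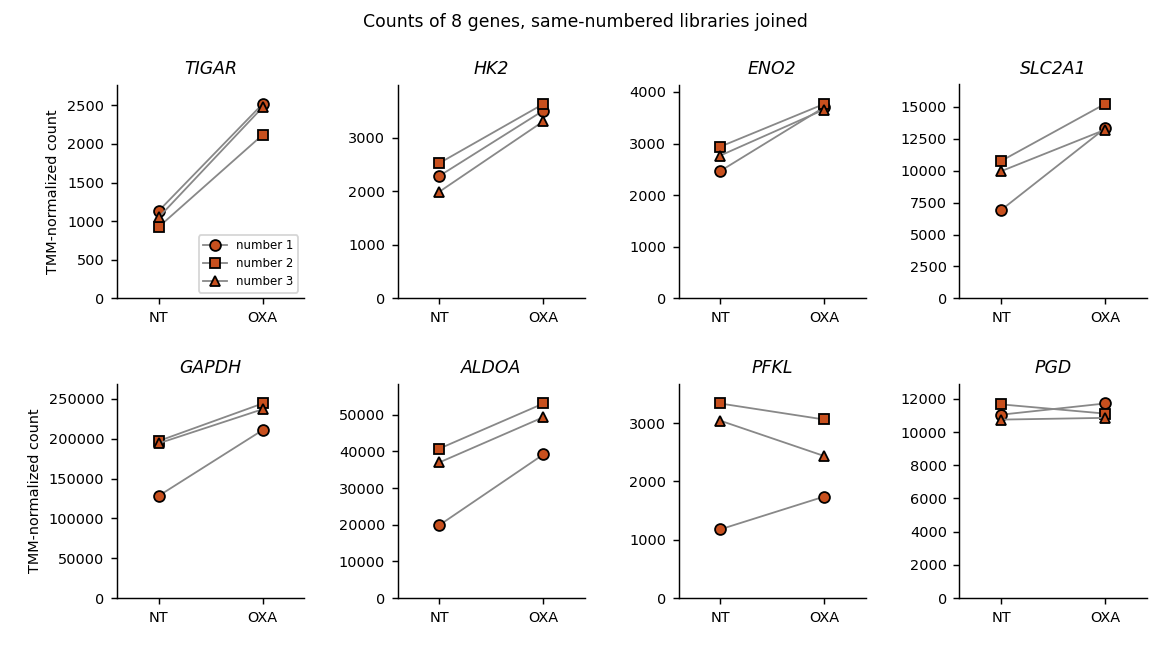
TMM-normalized counts (y axis, from 0) of 8 genes in NT and OXA, with the lines joining libraries of the same number and the symbol giving that number. TIGAR, HK2, ENO2, SLC2A1, GAPDH and ALDOA rise in all 3 pairs, PFKL rises in pair 1 and falls in pairs 2 and 3, and PGD lies between 10756 and 11727 in all 6 libraries.

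ALDOA, the main aldolase, had 19887, 40758 and 36989 normalized counts in NT against 39166, 53061 and 49330 in OXA. OXA library 1 lay below NT library 2, so the groups overlapped, although each OXA library exceeded its own pair (log2 fold change 0.54, SE 0.255, edgeR BH-adjusted p = 0.276, and 0.0236 with the block). The gene AC093512.2 covers 1639 of its exon bases on the same strand and held between 290 and 863 raw counts, so the division of reads between them is uncertain. ALDOC, the minor aldolase, had a log2 fold change of 0.32 without a call in either fit (edgeR BH-adjusted p = 0.327, and 0.0921 with the block), but was called with GC and length trends removed (log2 fold change 0.22, edgeR BH-adjusted p = 0.0225).

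TPI1, which interconverts the triose phosphates, had 38031, 44565 and 42879 normalized counts in NT against 53763, 52270 and 52187 in OXA, with a smaller spread in OXA than in NT (log2 fold change 0.33, edgeR BH-adjusted p = 0.0802, and 0.0203 with the block). PGK1, the first ATP-forming enzyme of the chain, had 26982, 24956 and 25681 in NT against 32654, 29236 and 31783 in OXA (log2 fold change 0.27, edgeR BH-adjusted p = 0.117, and 0.0145 with the block). NT library 1 was the highest of the NT libraries in PGK1, whose transcript has a GC content of 42.8%, and the log2 ratio was 0.23 in pair 2 and 0.31 in pair 3, against 0.28 in pair 1. PGAM1, phosphoglycerate mutase, changed less, from 25889, 26169 and 30683 to 29778, 29408 and 34649, with overlap (log2 fold change 0.18, edgeR BH-adjusted p = 0.391, and 0.0376 with the block).

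ENO1, the main enolase, had 94602, 121034 and 117291 normalized counts in NT against 129421, 134844 and 137556 in OXA (log2 fold change 0.27, edgeR BH-adjusted p = 0.215, and 0.0386 with the block). PKM, which encodes pyruvate kinase and whose M1 and M2 isoforms are not separated in counts per gene, had 83447, 102260 and 98384 in NT against 121993, 126327 and 115774 in OXA (log2 fold change 0.36, edgeR BH-adjusted p = 0.0945, and 0.0213 with the block). The groups of both genes were separate. GAPDH, PGAM1, ENO1, LDHB and other abundant enzymes of this chain have processed pseudogenes of near-identical sequence, and how the authors' counting treated shared reads is not given in the sources used here.

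The lactate dehydrogenase genes, whose products interconvert pyruvate and lactate, were not called with or without the block. LDHA had 62602, 53272 and 45823 normalized counts in NT against 68006, 60785 and 59952 in OXA. The groups overlapped, although each OXA library lay above its pair (log2 fold change 0.22, edgeR BH-adjusted p = 0.366, and 0.0519 with the block). With GC and length trends removed as well, LDHA was called higher (log2 fold change 0.31, edgeR BH-adjusted p = 0.000141). LDHB had 56120, 44222 and 46649 in NT against 50279, 43514 and 48255 in OXA, without a call in either fit (log2 fold change -0.05, edgeR BH-adjusted p = 0.850, and 0.602 with the block).

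Among the 4 transporters of glucose and lactate, 0 rose in the plain fit and 3 with the block. Over all genes tested, 2.78% and 12.1% were called higher in these fits. SLC2A1, the basal glucose transporter GLUT1, had 6907, 10748 and 9948 normalized counts in NT against 13300, 15211 and 13193 in OXA. The groups did not overlap, with a log2 fold change of 0.60 (SE 0.165, edgeR BH-adjusted p = 0.0839, and 0.0152 with the block). Without NT library 1 the plain fit gave 0.43 and a call (edgeR BH-adjusted p = 0.032). SLC2A3, the high-affinity transporter GLUT3, had 309, 419 and 302 in NT against 573, 519 and 416 in OXA, where OXA library 3 lay just under NT library 2 (log2 fold change 0.55, edgeR BH-adjusted p = 0.135, and 0.0356 with the block). Its near-identical copy SLC2A14 was listed at 0 in all libraries, so the counts of SLC2A3 may hold reads of either gene.

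SLC16A3, which encodes the lactate exporter MCT4, was the most variable of the transporters, with 2692, 7218 and 5764 normalized counts in NT against 5845, 9578 and 7140 in OXA. The groups overlapped, and the difference was smaller in pairs 2 and 3 (0.41 and 0.31 on the log2 scale) than in pair 1 (1.12). The log2 fold change was 0.53 (SE 0.339, edgeR BH-adjusted p = 0.424, and 0.0423 with the block). The transcript has the highest GC content of the 33 genes, 64.7%, and CSNK1D shares 482 exon bases with it on the opposite strand. SLC16A1, which encodes MCT1, had 8638, 6981 and 7859 in NT against 8568, 7186 and 8558 in OXA and was not called in either fit (log2 fold change 0.05, edgeR BH-adjusted p = 0.845, and 0.491 with the block). It was called higher with GC and length trends removed (log2 fold change 0.16, edgeR BH-adjusted p = 0.00415).

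**Figure D4:**
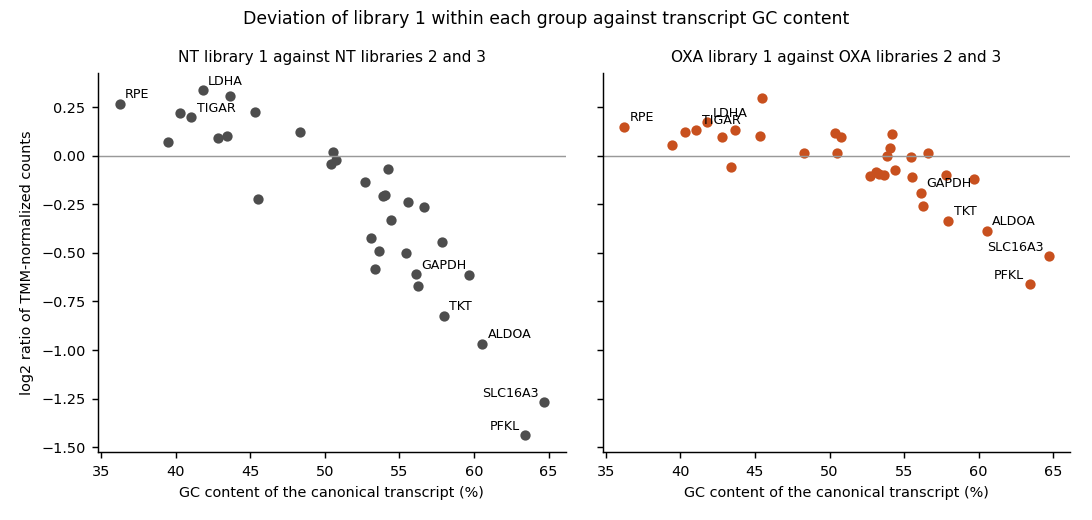
Log2 ratio of the TMM-normalized counts of library 1 over the mean of the other libraries of its group (y axis, NT on the left and OXA on the right) against the GC content of the canonical transcript in % (x axis), 1 point for each of the 33 genes. Library 1 is low for GC-rich transcripts in both groups, with PFKL at -1.44 in NT, and the slope is steeper in NT than in OXA.

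The enzymes that set the level of the phosphofructokinase activator form the group in which TIGAR stood. Of its other members, PFKFB4 had 769, 1318 and 1131 normalized counts in NT against 1391, 1700 and 1627 in OXA. The groups did not overlap (log2 fold change 0.55, SE 0.194, edgeR BH-adjusted p = 0.15, and 0.0161 with the block). PFKFB3, whose product strongly favours synthesis of the activator, had 1955, 2380 and 2240 in NT against 2484, 2659 and 2694 in OXA (log2 fold change 0.25, edgeR BH-adjusted p = 0.198, and 0.0315 with the block). PFKFB2 lay between 730 and 843 in all 6 libraries and was not called, with a sign that turned negative with upper-quartile factors (log2 fold change 0.02, edgeR BH-adjusted p = 0.924). Thus 3 of the 4 genes, namely TIGAR, PFKFB3 and PFKFB4, were higher with the block. That fit called 12.1% of all genes higher.

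None of the 5 measured genes of the pentose phosphate pathway was called by edgeR in either fit, and at an unadjusted p under 0.05 the plain fit gave 0 in each direction. Over all genes, 2.78% were called higher and 2.29% lower in the plain fit, and 12.1% and 10.9% with the block. At the unadjusted p the all-gene shares were 10.7% and 11.1%. Among only 5 genes, 0 calls lay near that background. PGD, an NADPH-forming enzyme of the oxidative branch, had 11053, 11675 and 10756 normalized counts in NT against 11727, 11119 and 10861 in OXA. These 6 values lay within a narrow range, and the sign turned negative with upper-quartile factors (log2 fold change 0.01, SE 0.0812, edgeR BH-adjusted p = 0.962). TKT, the transketolase that links the branch back to glycolysis, had 13739, 24462 and 24173 in NT against 22110, 28357 and 27441 in OXA, with overlap (log2 fold change 0.32, edgeR BH-adjusted p = 0.455, and 0.0582 with the block). TALDO1, RPE and RPIA, which encode transaldolase and the pentose phosphate epimerase and isomerase, had log2 fold changes between 0.03 and 0.07, that of TALDO1 turning negative with upper-quartile factors. With GC and length trends removed as well, TKT and RPE were called higher (log2 fold changes 0.24 and 0.18), while PGD, TALDO1 and RPIA were not called. That fit called 26.1% of all genes higher. KANSL1L shares 840 exon bases with RPE on the opposite strand.

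Of the pyruvate dehydrogenase kinases, PDK1, a kinase gene known as a target of hypoxia signaling, had 782, 802 and 687 normalized counts in NT against 995, 993 and 921 in OXA. The groups were separate (log2 fold change 0.36, SE 0.108, edgeR BH-adjusted p = 0.103, and 0.0204 with the block). PDK3 had 1850, 1634 and 1530 in NT against 1562, 1468 and 1447 in OXA, and was lower in OXA in all 3 pairs, the only one of the 33 genes for which this held. It was not called in either fit (log2 fold change -0.16, edgeR BH-adjusted p = 0.417, and 0.122 with the block), but was with GC and length trends removed (log2 fold change -0.13, edgeR BH-adjusted p = 0.0275). PDK2 had a log2 fold change of 0.07 (edgeR BH-adjusted p = 0.87). PDK4, a kinase gene outside the 33, had 231, 204 and 252 normalized counts in NT against 195, 193 and 146 in OXA. Every OXA library of PDK4 lay below every NT library, which held for 14.4% of all genes. PDK4 was not called in either fit (log2 fold change -0.36, edgeR BH-adjusted p = 0.28, and 0.158 with the block).

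Shares of isozymes within 9 families were compared next, since a share within a library does not depend on the library factor. The shares were not corrected for the differences between libraries by transcript GC content. Counts were divided by the length of the canonical transcript, so a share assumes that this transcript is the one in use. In each comparison an unpaired two-sided exact permutation test over the libraries was used, which takes no account of the library number. With 3 against 3 libraries the smallest p it can give is 0.10, so that no share could pass the threshold. Over the 21 genes compared, 9 reached that smallest p, which adjusted to 0.233, and in a family of 2 genes the shares mirror each other. HK2 made up 24.0%, 23.9% and 21.8% of hexokinase in NT and 26.4%, 27.3% and 28.1% in OXA, a difference of 4.02 points (exact permutation p = 0.10, n = 3 per group). LDHA went from 39.0% ± 2.44 to 43.6% ± 1.49 of lactate dehydrogenase (SD, n = 3, exact permutation p = 0.10), with all 3 pairs higher. PFKFB4 went from 33.4% ± 4.52 to 39.1% ± 1.69 of its family and PDK1 from 3.65% ± 0.202 to 4.90% ± 0.0692, at the same exact permutation p of 0.10 (n = 3). Families held only genes among the 33, so the share of PDK1 is taken over PDK1, PDK2 and PDK3. PDK4, which was left out, had 4.08 ± 0.453 TPM in NT and 3.00 ± 0.448 in OXA, against 3.45 ± 0.285 and 4.19 ± 0.156 for PDK1. ENO2 remained a small part of enolase, at 1.88% ± 0.0959 in NT and 2.11% ± 0.0763 in OXA (n = 3, exact permutation p = 0.10). SLC16A3 made up 31.0%, 59.9% and 51.4% of the monocarboxylate transporters in NT and 49.6%, 65.8% and 54.6% in OXA, higher in all 3 pairs although the groups overlapped (unpaired exact permutation p = 0.50, n = 3).

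**Figure D5:**
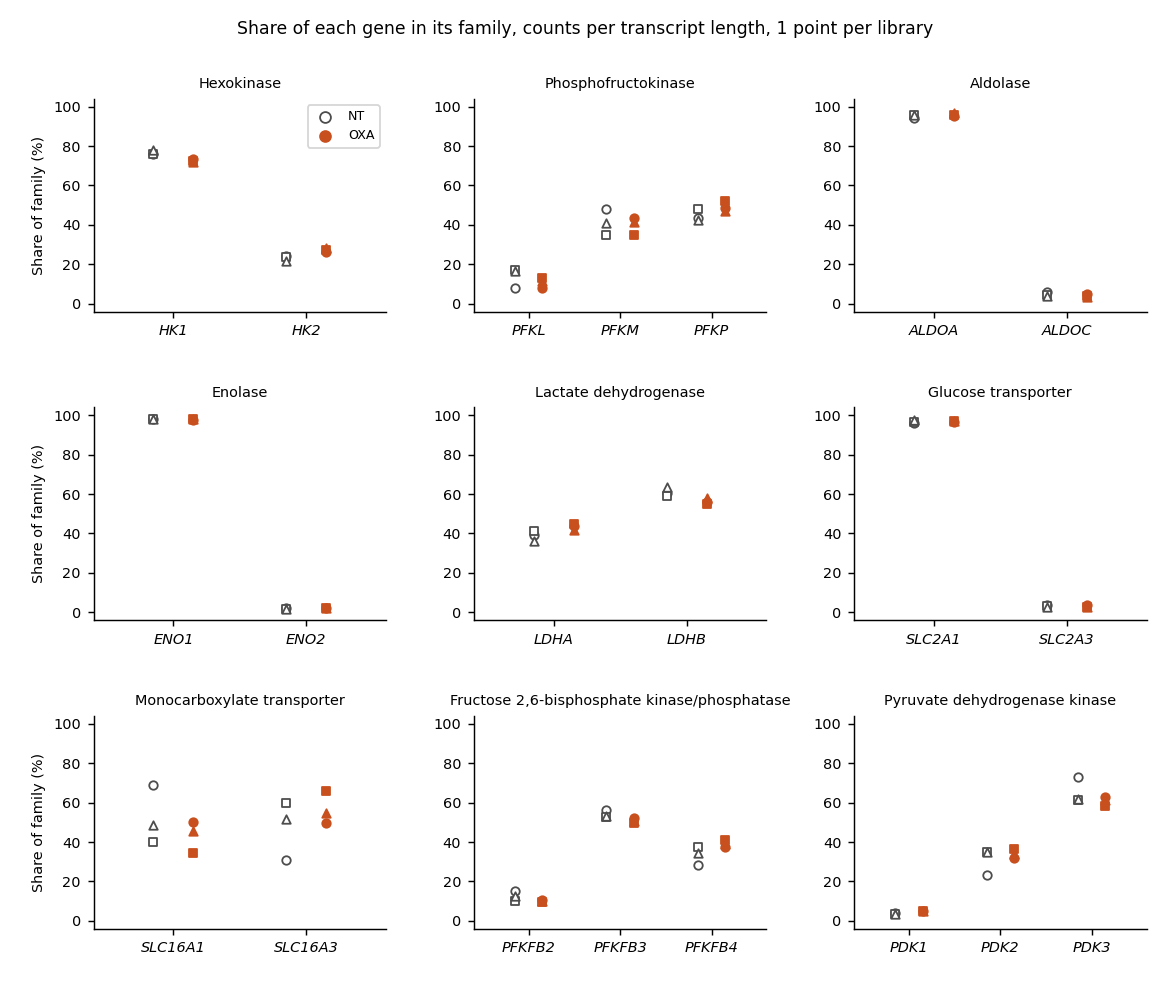
Share of each gene in its enzyme or transporter family in % (y axis), from counts per transcript length, with NT libraries as open and OXA libraries as filled symbols and the shape giving the library number. HK2, LDHA, PFKFB4 and PDK1 lie higher in every OXA library than in every NT library, whereas the shares of SLC16A1, SLC16A3 and PFKM spread widely within NT. PDK4 is not part of the kinase family shown.

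Levels of different genes can be set side by side only per transcript length. On the TPM scale the order in NT ran from GAPDH through ENO1 (3992 ± 463), PKM (2633 ± 241), LDHB (2415 ± 346) and TPI1 (1984 ± 134) to LDHA (1544 ± 258). The gap between PKM and LDHB was smaller than the SD of either gene, and that between LDHB and TPI1 was larger than the SD of either. PFKP (172 ± 32.3) and PFKM (156 ± 6.70) did not differ beyond their spread, and both lay above PFKL (55.3 ± 25.2). At the low end stood PFKFB2 (7.20 ± 0.592), SLC2A3 (5.74 ± 1.03) and PDK1 (3.45 ± 0.285), and all such values depend on the transcript assumed.

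Other genes of sugar metabolism, a list of 67 names that are not among the 34, were read from the same fit. Of the 67, 66 were in the table by symbol and 44 were tested, the rest having too few counts. In the plain fit 3 rose and 2 fell, and with the block 7 rose and 6 fell, with a median log2 fold change of 0.08. The shares called higher, 6.82% and 15.9%, stood beside 2.78% and 12.1% of all genes. With the block the list thus lay near the background. Called lower were 2.29% and 10.9% of all genes in the same fits. Each of the 5 called genes kept its call in 1 to 3 of the 6 fits that omitted a library. The rises were those of HKDC1, a hexokinase-domain gene (24.5, 21.8 and 24.6 normalized counts in NT and 46.5, 62.1 and 60.6 in OXA, log2 fold change 1.25, edgeR BH-adjusted p = 0.028), ARRDC4, an arrestin that restrains glucose uptake (log2 fold change 0.98, edgeR BH-adjusted p = 0.00975), and GBE1, the glycogen branching enzyme (log2 fold change 0.80, edgeR BH-adjusted p = 0.0139). TXNIP, the better known relative of ARRDC4, was listed at 0 in all libraries. The gene annotation behind the counting is not given in the sources used here, so absence of the TXNIP transcript cannot be concluded. The falls were those of H6PD, which starts a pentose phosphate branch within the endoplasmic reticulum (log2 fold change -0.71, edgeR BH-adjusted p = 0.0358), and PRPS2, which turns ribose phosphate into the precursor of nucleotides (3958 ± 411 normalized counts in NT against 2423 ± 138 in OXA, log2 fold change -0.71, edgeR BH-adjusted p = 0.0118).

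With the block, GYS1, the muscle-type glycogen synthase, and MPC1, a subunit of the mitochondrial pyruvate carrier, were also higher (log2 fold changes 0.45 and 0.44, edgeR BH-adjusted p = 0.0136 and 0.0262). PCK2, SLC37A4 and ADPGK, genes of gluconeogenesis, glucose phosphate transport and an ADP-dependent glucokinase, were lower with the block (log2 fold changes -0.46, -0.43 and -0.39, edgeR BH-adjusted p = 0.0362, 0.0187 and 0.023). Of the 7 tested genes of the pentose phosphate list beyond the 33, 0 rose and 2 fell in each fit. Over all genes, 2.29% were called lower in the plain fit and 10.9% with the block.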

How the data were processed

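RNA-Seq libraries of HCT116 cells (3 NT, 3 OXA) were grouped by their labels. The authors mapped reads to GRCh38 with STAR 2.7.5b and normalized with DESeq2 2.13, and the submitters' processing notes also name Trimmomatic 0.32 and RSEM 1.3.3. The gene annotation and the strand setting of the counting are not given in the sources used here. The authors deposited, per gene and library, a raw count (whole numbers) and a normalized signal, which is the raw count times a factor that varies between genes and libraries and served only as an alternative.

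Raw counts as deposited were filtered with filterByExpr (minimum count 10, minimum total count 15), normalized by TMM and compared by the quasi-likelihood test of edgeR 4.0.16 under R 4.3.3, at a Benjamini-Hochberg threshold of 0.05. The alternatives used limma 3.58.1 and DESeq2 1.42.0. The SE was obtained from the log2 fold change and the square root of its F statistic. The edgeR fits without and with the block were run on simulated counts in which 200 genes changed 2- to 2.8-fold. Each recovered 192 of the 200, and with differences between replicate numbers added they recovered 134 and 193. Smaller changes, GC trends, the other fits and the permutation test were not simulated. Transcript length, GC content and positions came from GENCODE release 44 (GRCh38), and upstream sequences from RefSeq (GRCh38.p14). TPM was computed from the counts and the canonical transcript length. Same-numbered libraries had deviations from the group means correlated at 0.51, 0.50 and 0.28 (pairs 1 to 3), all over the limit of 0.1, and differently numbered ones at up to 0.083. The numbers come from the labels, which do not say what they stand for.

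The members and lists were chosen with earlier results of these data known. Values in every library are given for members called with or without the block, for the most abundant of each family and for those without overlap at an absolute log2 fold change of at least 0.3. Of the other pathway genes, up to 10 called ones were named by size of change. CDKN1A checks the treatment. The values by library of PFKL, LDHA, PGD, TKT, TXNIP, PDK4 and PGLS were added after they were seen.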

Additional observations from a re-analysis of the deposited data

How the results depend on the processing

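TIGAR kept its call in each single-library omission, and the median log2 fold change of the 33 genes stayed positive under each alternative scaling, which moved the median of all genes by less than 0.1. Counts depended more on the model. Genes of the 33 called higher, 3 in the plain fit, numbered 6 by DESeq2, 1 in a test against a 1.5-fold change, 20 with the replicate block, 25 with the block and GC and length trends removed, and 1 to 4 without single libraries (4 without NT library 1, 1 without NT library 3 or any OXA library). With the replicate block and pair 1, 2 or 3 left out, which was chosen after seeing the data, they numbered 23, 12 and 17. Genes called lower numbered 2 with GC and length trends removed and 1 with pair 1 left out. For the 44 other pathway genes tested, the test against 1.5-fold called 0 higher and 0 lower, and the replicate block 7 and 6. The block with GC and length trends removed called 16 and 8, and single-library omissions 0 to 5 and 0 to 4. With pairs 1, 2 and 3 left out, 13, 6 and 9 were higher and 9, 2 and 5 lower. Over all genes, the block called 12.1% higher and 10.9% lower, and 26.1% and 18.9% with GC and length trends removed. With pairs 1, 2 and 3 left out, the all-gene shares were 21.2%, 6.95% and 13.7% higher and 20.2%, 4.89% and 8.66% lower. Single-library omissions called 0.474% to 4.49% of all genes higher.

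Signs turned for genes near 0, with the cause not tested. PFKL came to 0.038 by limma-voom, 0.027 with the replicate block, 0.080 and 0.20 with pair 2 or 3 left out, and -0.40 to 0.17 without single libraries. PFKFB2 came to -0.016 with upper-quartile factors, -0.0045 unfiltered, -0.0043 with the 1 CPM filter, -0.053 with pair 2 left out and -0.065 to 0.058 without single libraries. PGD came, in the same first 3 settings, to -0.030, -0.019 and -0.019, to -0.036 with the authors' factors, -0.028 and -0.0022 with pair 1 or 3 left out and -0.048 to 0.018 without single libraries. TALDO1 came to -0.0031 with upper-quartile factors, and TALDO1 and PDK2 to -0.053 and -0.051 with GC and length trends removed and to -0.078 and -0.075 with pair 1 left out. PDK2 and PDK3 came to -0.00042 and 0.024 with the authors' factors, and LDHB to 0.013 with pair 1 left out. Without single libraries the ranges were -0.11 to 0.14 for TALDO1, -0.11 to 0.17 for PDK2, -0.15 to 0.060 for LDHB, -0.058 to 0.13 for SLC16A1, -0.015 to 0.16 for RPE and -0.028 to 0.13 for RPIA. The differences in share ranged from -4.54 to 2.06 points for PFKM, -0.13 to 0.46 for SLC2A1, -0.46 to 0.13 for SLC2A3 and -0.90 to 5.05 for PDK2.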
